A study of Mus musculus with 4 samples.

Results

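The genes described here are the Skint family of keratinocytes, the genes of epidermal T cells, and the cytokine gene Il15 with its receptor chain gene Il15ra. They were chosen by symbol, and all 34 named genes had a row among the 17721 genes of the deposited table: 11 Skint genes, 21 T cell genes, Il15 and Il15ra. Each library held epidermal RNA from the back of C57BL/6 mice aged 63 postnatal days; 2 were wild type and 2 had the genotype LDB2-/-. The skin was treated with dispase, which loosens epidermis from dermis, and RNA was taken with Trizol. The labels name no other allele or treatment, and they do not say whether the null allele was present in every cell of the body, which sex the animals had or how many animals made up a library. The p-values below therefore measure only the spread between these libraries. The genes were chosen with the comparison of LDB2-/- with wild type in these same libraries already known, so their differences are given as a description, without a test.

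Skint genes encode membrane proteins of the immunoglobulin superfamily, related to butyrophilins, that are made by keratinocytes and thymic epithelium. Skint1 is needed for the thymic selection of the gamma-delta T cells that populate mouse epidermis, called dendritic epidermal T cells. These cells sit between keratinocytes, carry CD3 and Thy1 at their surface, use the NKG2D receptor to sense stressed keratinocytes, and depend on IL-15, which is presented to them by the IL-15 receptor alpha chain, and on IL-7. Dendritic epidermal T cells normally lack CD4 and CD8.

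Total counts ran from 54095522 to 68436842 per library, and genes with a count from 15468 to 16599. Ldb2 had 0 and 8 counts in wild type against 0 and 0 in LDB2-/-, so it did not check the labels. Of 12400 genes tested, 7097 passed an adjusted p of 0.05 in edgeR's quasi-likelihood test, 57.2%: 28.8% lower and 28.4% higher in LDB2-/-. With the library total alone in place of TMM scaling, 2248 genes were higher and 5096 lower, and the median over all genes tested went from -0.01 to -0.33 (log2). Levels are CPM (a gene's counts relative to the library total, scaled between libraries by the trimmed mean of M-values, TMM) unless FPKM, which also divides by transcript length, is named. Fold changes are on the log2 scale, LDB2-/- over wild type, with a standard error (SE) derived from the edgeR fit. This SE is the absolute log2 fold change divided by the square root of the F statistic.

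The 11 Skint genes lie in one cluster of 2.33 Mb on chromosome 4 (chr4:111919555-114245028, mm10), in the order Skint8, Skint7, Skint1, Skint4, Skint3, Skint9, Skint2, Skint10, Skint6, Skint5 and Skint11. Skint9, Skint10, Skint6 and Skint5 are on the minus strand and the other 7 on the plus strand. RefSeq promoter windows (GRCm38.p6, the patch release of mm10; 250 bases before to 50 bases after the start) were found for all 11 genes, 12 windows in all since Skint4 has 2. The 14-base run AGTACTTGAGTAAT was in the windows of 5 of the 11 genes, Skint1, Skint3, Skint4, Skint5 and Skint6, and in no other of the 32851 windows in the table on either strand. Its first base is at position -231 from the start in Skint1, at -228 in both Skint5 and Skint6, at -103 in Skint3 and at -47 in the second window of Skint4. A 13-base run, TGACTTTCATAAA, was shared by Skint9, Skint10 and Skint11 and was in no other window. Both runs were picked after the sequences were compared. The windows below show them in capitals. Skint1 is the family member with a known role in T cell selection, Skint3 carries the run at another distance, Skint5 and Skint6 are the pair with the most identical bases, and Skint10 and Skint11 show the other run.
Skint1 (chr4:112006019-112006318, plus strand): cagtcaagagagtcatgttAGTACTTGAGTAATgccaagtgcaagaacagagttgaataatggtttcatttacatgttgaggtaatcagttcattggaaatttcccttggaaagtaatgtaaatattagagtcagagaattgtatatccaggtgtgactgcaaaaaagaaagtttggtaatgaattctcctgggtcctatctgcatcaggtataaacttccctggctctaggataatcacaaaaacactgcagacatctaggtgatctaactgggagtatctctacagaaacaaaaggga
Skint3 (chr4:112231995-112232294, plus strand): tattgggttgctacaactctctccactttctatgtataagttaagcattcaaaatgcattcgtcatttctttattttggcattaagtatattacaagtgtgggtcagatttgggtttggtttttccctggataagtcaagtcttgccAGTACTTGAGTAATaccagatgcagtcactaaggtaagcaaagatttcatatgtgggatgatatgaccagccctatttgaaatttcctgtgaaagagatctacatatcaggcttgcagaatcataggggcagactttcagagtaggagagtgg
Skint5 (chr4:113999454-113999753, minus strand): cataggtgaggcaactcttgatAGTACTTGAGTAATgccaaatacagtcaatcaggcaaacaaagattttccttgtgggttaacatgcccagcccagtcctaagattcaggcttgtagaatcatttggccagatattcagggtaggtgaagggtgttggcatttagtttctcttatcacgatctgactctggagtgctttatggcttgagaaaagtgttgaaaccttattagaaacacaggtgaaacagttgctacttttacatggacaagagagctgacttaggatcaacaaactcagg
Skint6 (chr4:113286924-113287223, minus strand): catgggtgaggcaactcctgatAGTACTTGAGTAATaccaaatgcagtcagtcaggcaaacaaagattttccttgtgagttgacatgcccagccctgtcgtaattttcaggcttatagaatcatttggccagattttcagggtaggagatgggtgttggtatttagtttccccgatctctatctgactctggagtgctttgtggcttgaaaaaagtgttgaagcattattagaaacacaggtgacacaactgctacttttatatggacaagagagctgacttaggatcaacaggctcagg
Skint10 (chr4:112774812-112775111, minus strand): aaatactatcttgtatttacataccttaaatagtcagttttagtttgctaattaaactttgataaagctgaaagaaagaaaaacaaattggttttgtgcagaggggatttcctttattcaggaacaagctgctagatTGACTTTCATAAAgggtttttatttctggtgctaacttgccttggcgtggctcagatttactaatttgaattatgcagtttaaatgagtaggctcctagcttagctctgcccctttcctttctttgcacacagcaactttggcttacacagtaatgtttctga
Skint11 (chr4:114163134-114163433, plus strand): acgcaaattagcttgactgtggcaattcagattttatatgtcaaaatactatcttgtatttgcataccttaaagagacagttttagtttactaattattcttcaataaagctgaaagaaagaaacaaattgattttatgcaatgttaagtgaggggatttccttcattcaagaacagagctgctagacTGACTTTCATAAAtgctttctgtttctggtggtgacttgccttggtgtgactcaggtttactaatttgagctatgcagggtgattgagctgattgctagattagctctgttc

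Skint5 and Skint6 shared the most identical bases of any pair of windows, being identical at 269 of 300 aligned bases (89.7%) without a gap. Skint10 and Skint11 were identical at 210 of 244 aligned bases (86.1%) with 12 gap bases, and Skint9 and Skint10 at 199 of 250 (79.6%) with 35. The TATA box letters TATAAA, searched on both strands, were in the windows of 8 of the 11 genes (Skint1, Skint2, Skint4, Skint6, Skint7, Skint8, Skint9 and Skint11) and in 13.6% of all windows. The AP-1 letters TGANTCA were found only in Skint11, against 7.81% of all windows. The letters TAATTA, the core bound by LIM homeodomain proteins, were in Skint10 and Skint11, against 5.29% of all windows. These matches are letters in a window and do not show binding. Of all 75-base stretches of a gene's GENCODE transcripts, at most 4.6% (Skint7, shared with Skint8) also occurred in another Skint gene. The share was 1.08% for Skint5 and 1.28% for Skint6, shared with each other, and 0% for the other 7. Only exact matches were counted, so stretches that differ by a base or more are not covered. Whether reads moved between members was not tested. Skint11 shared 2.09% of its stretches with the pseudogene Gm12813.

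Every Skint gene was lower in both LDB2-/- libraries than in both wild type libraries. The summed level of the family was 659.4 and 487.8 in wild type (libraries 1 and 2) against 75.5 and 57.6 in LDB2-/-, 8.62-fold lower by the means. The median log2 fold change over the 11 genes was -3.23, or -3.25 when no expression filter was used, against -0.01 over all genes tested. All 11 passed the adjusted p of 0.05 in the direction of lower, in which 28.8% of all genes passed, and 41.7% of all genes tested had both LDB2-/- libraries below both wild type libraries (40.8% above). Nothing is read from these counts, since the genes were chosen on this comparison. Skint5, Skint6 and Skint11 were under 1 FPKM in both LDB2-/- libraries and were tested through their wild type level alone. In whole tissue, fewer cells of a type and less RNA per cell cannot be told apart.

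**Figure D1:**
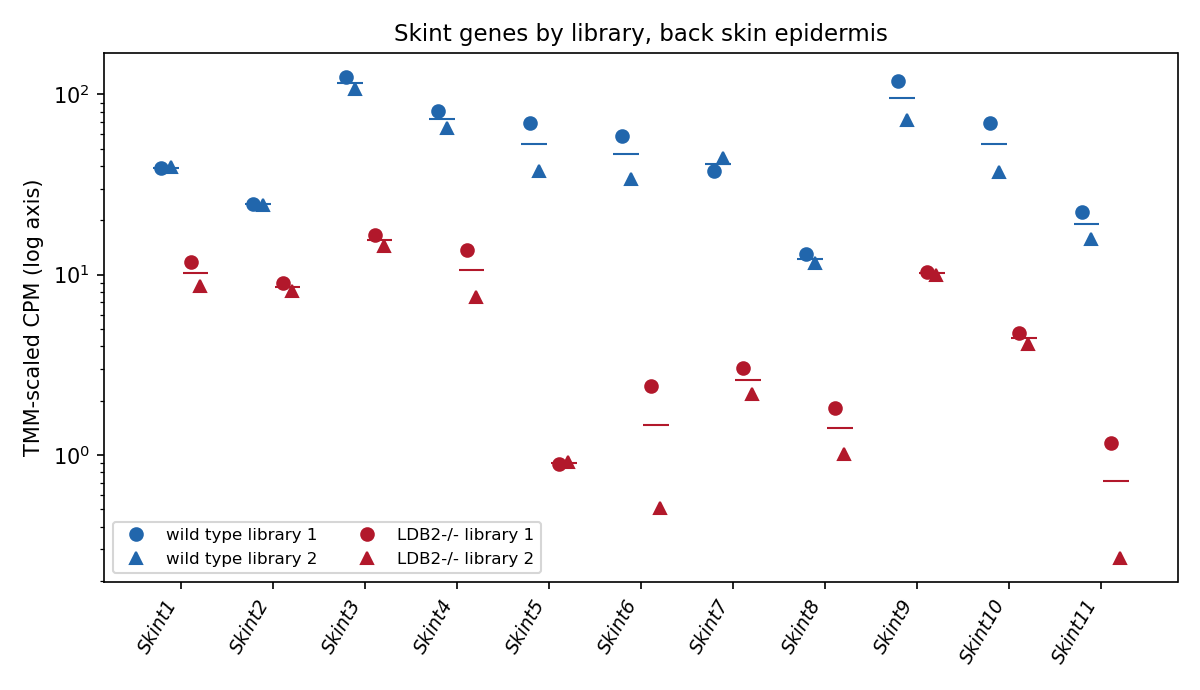
TMM-scaled CPM (log axis) of the 11 Skint genes in each library, circles for library 1 and triangles for library 2, wild type in blue and LDB2-/- in red, with a line at each mean. For every gene both red symbols lie below both blue ones, closest for Skint2 (24.7 and 24.4 against 9.01 and 8.08) and farthest apart for Skint5 (69.0 and 37.4 against 0.886 and 0.908).

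Skint1 (gene ID 639781, chr4:112006269-112029538) was at 38.9 and 39.4 CPM in wild type against 11.8 and 8.69 in LDB2-/-. Its log2 fold change was -1.94 (SE 0.19), 3.83-fold lower. Skint2 (gene ID 329919) was at 24.7 and 24.4 against 9.01 and 8.08, a log2 fold change of -1.52 (SE 0.17). These are the smallest differences of the family, and the wild type libraries gave nearly the same level for both genes. By contrast Skint5 (gene ID 242627, chr4:113477891-113999503) was at 69.0 and 37.4 in wild type against 0.886 and 0.908 in LDB2-/-, from 44 and 54 counts. That is 59.1-fold lower (log2 -5.89, SE 0.37), the largest difference among the members in this fit. The order of the largest differences was not stable. Without LDB2-/- replicate 1, Skint6 (-6.47) and Skint11 (-6.09) passed Skint5 (-5.82), and with limma on log2(FPKM + 1) Skint11 (-3.62) and Skint7 (-3.60) passed it (-3.52). Skint6 (gene ID 230622, chr4:112804616-113286973), the neighbour with the near-identical promoter window, was at 59.1 and 34.0 against 2.42 and 0.504 (log2 -5.02, SE 0.72). Skint11 was at 22.4 and 15.7 against 1.17 and 0.269 (log2 -4.75, SE 0.65). For both Skint6 and Skint11, LDB2-/- library 1 held over 4 times the level of library 2 (ratios of 4.79 and 4.34), from 120 and 30 counts for Skint6 and 58 and 16 for Skint11.

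The other members lay between these extremes. Skint7 was at 37.8 and 44.4 in wild type against 3.04 and 2.17 in LDB2-/- (log2 -3.98, SE 0.23). Skint9 was at 119.2 and 71.9 against 10.4 and 10.0 (log2 -3.23, SE 0.26), and Skint10 at 69.4 and 37.3 against 4.75 and 4.10 (log2 -3.59, SE 0.33). In both genes the LDB2-/- libraries were close together while the wild type libraries were well apart. Skint3, at 124.8 and 107.0 against 16.6 and 14.4 (log2 -2.90, SE 0.14), had the smallest SE of the family. Skint4 was at 81.2 and 64.8 against 13.6 and 7.48 (log2 -2.79, SE 0.31). Skint8, the gene at the low end of the cluster by coordinate, was at 12.9 and 11.6 against 1.81 and 1.01 (log2 -3.13, SE 0.34).

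Levels can be compared between genes only per length. By FPKM in wild type (mean ± SD, n = 2), Skint9 was highest at 76.2 ± 25.7, followed by Skint1 at 34.1 ± 0.80, Skint10 at 33.7 ± 13.9 and Skint3 at 33.3 ± 3.18. The order among the last 3 is within their spread. Skint7 followed at 28.5 ± 3.30, Skint2 at 21.2 ± 0.12, Skint4 at 20.0 ± 2.89 and Skint11 at 16.9 ± 3.36. Skint6 (13.3 ± 4.89), Skint5 (13.0 ± 5.29) and Skint8 (10.5 ± 0.65) were lowest and did not differ beyond their spread. In LDB2-/- the order was another one: Skint1 (7.17 ± 1.82), Skint9 (6.53 ± 0.44) and Skint2 (5.93 ± 0.69) led, and Skint5, at 0.174 ± 0.0061, was lowest. FPKM was not scaled by TMM, and ratios of FPKM are larger than the fold changes from counts (4.75 against 3.83 for Skint1).

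Along the cluster, the 3 genes at the high end by coordinate, Skint6, Skint5 and Skint11, had the 3 largest differences, from -4.75 to -5.89, and the other 8 ran from -1.52 to -3.98. With limma on log2(FPKM + 1) this did not hold, since Skint7 (-3.60) then exceeded Skint5 (-3.52) and Skint6 (-3.39). The difference between these stretches was not tested. Within wild type, the 4 minus strand genes stood at 1.66 to 1.86 times as high in library 1 as in library 2 (Skint9 1.66, Skint6 1.74, Skint5 1.85, Skint10 1.86). The 7 plus strand genes had ratios from 0.851 (Skint7) to 1.42 (Skint11), so the ranges did not overlap. This split between 2 libraries was noticed after the values were seen and has no replicate check. Whether counting used strand is not given in the sources used here, and Skint6 overlaps the exons of an antisense gene, Gm12823, whose reads cannot be separated from it.

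**Figure D2:**
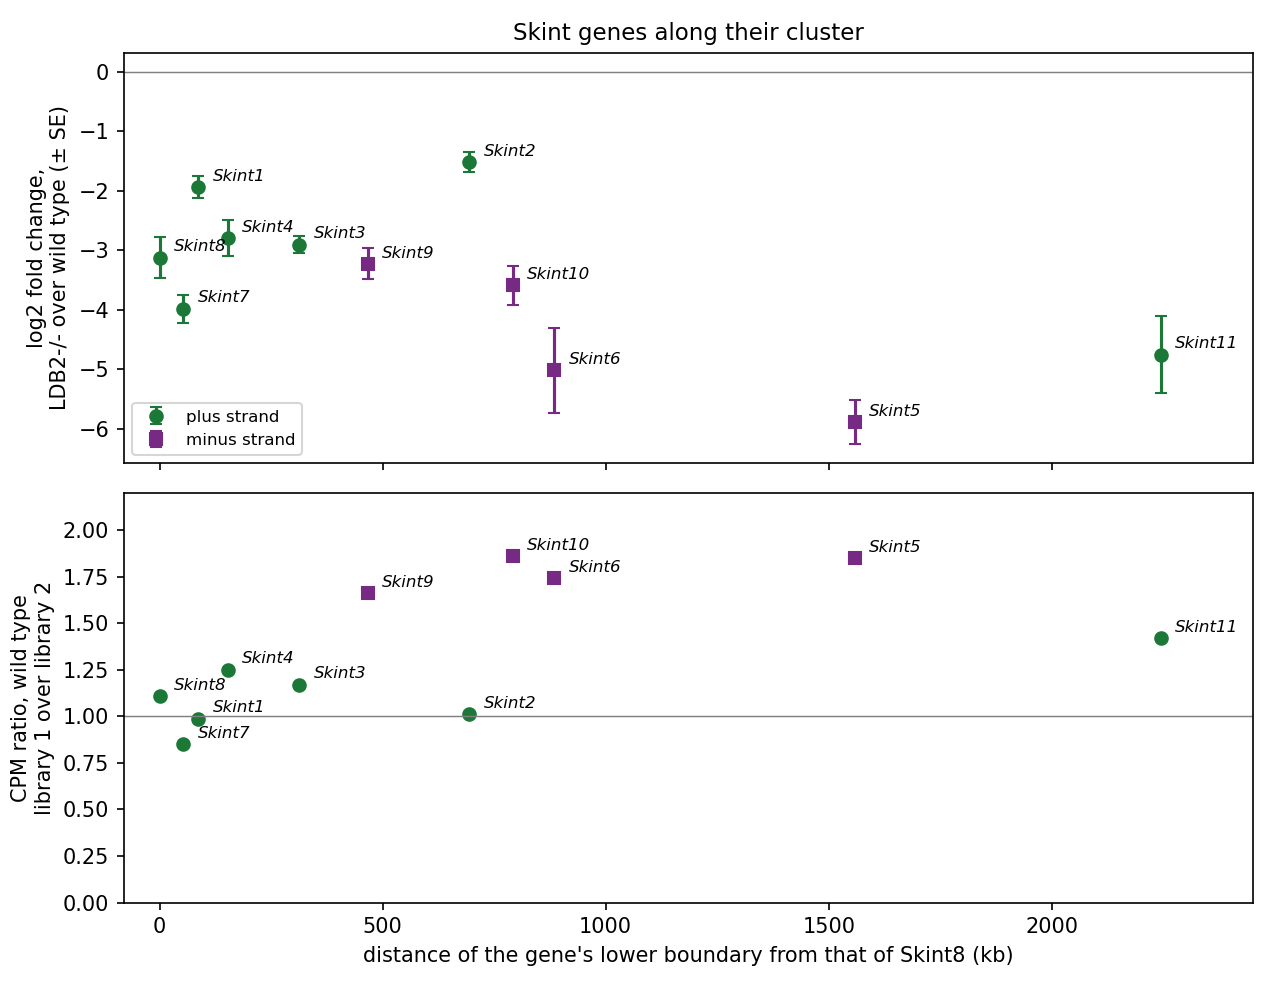
Skint genes by distance (kb) from the lower boundary of Skint8, plus strand genes as green circles and minus strand genes as purple squares. Top, log2 fold change of LDB2-/- over wild type with SE bars, from -1.52 (Skint2) to -5.89 (Skint5). Bottom, ratio of CPM in wild type library 1 to library 2, with the 4 minus strand genes at 1.66 to 1.86 and the plus strand genes at 0.851 to 1.42.

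Genes next to the cluster were looked up after the Skint values were seen, taking the nearest 3 protein-coding RefSeq genes on each side. Slc5a9, a sugar transporter gene just below Skint8, fell by 2.40 on the log2 scale (SE 0.18, edgeR adjusted p = 0.000302), from 26.9 and 24.6 to 4.63 and 5.08. Spata6, the next gene, fell by 1.52 (SE 0.23, edgeR adjusted p = 0.00281). On the other side, Trabd2b, a Wnt-cleaving protease gene, did not pass (log2 -0.10, SE 0.20, edgeR adjusted p = 0.699), at 11.1 and 11.6 against 9.57 and 11.7. Foxd2 had at most 12 counts in a library, and Agbl4 and Foxe3 were not analysed here.

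Keratinocyte markers moved alongside the Skint genes. The suprabasal keratinocyte list (11 genes) had a summed level of 34600 and 29680 in wild type against 5617 and 5192 in LDB2-/-, 5.95-fold lower, and 10 of its 11 genes fell, all but Dsc1 (log2 0.29). Lor, the loricrin gene, fell by 3.27 and Krtdap by 3.09. The filaggrin family genes Flg2 (log2 -5.24) and Hrnr (log2 -5.21) fell too, but were under 1 FPKM in both LDB2-/- libraries and were tested through wild type alone. All 11 basal keratinocyte genes fell, with a median of -1.69 and a summed level 2.31-fold lower. The 16 hair shaft and inner root sheath genes rose, with a summed level of 188.8 and 845.5 in wild type against 128100 and 139800 in LDB2-/-. The part of these shifts in the Skint result was not tested.

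T cell genes were lower in LDB2-/- too, with smaller fold changes at the median than the Skint genes. Their summed level was 468.3 and 570.3 in wild type against 188.9 and 223.8 in LDB2-/-, 2.52-fold lower by the means. Of the 21 genes, 17 were tested, and in all 17 both LDB2-/- libraries were below both wild type libraries, as in 41.7% of all genes tested. Of the 17, 14 passed the adjusted p in the direction of lower (28.8% of all genes). As for the Skint genes, nothing is read from these counts, since the genes were chosen on this comparison and Il7r and Klrk1 were tested through their wild type level alone. Over all 21 genes, without a filter, the median log2 fold change was -1.10, against -0.09 over all genes in that fit. The contrast of the Skint with the T cell genes was not tested.

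The CD3 chains assemble with the T cell receptor, and their 3 genes lie side by side on chromosome 9 (chr9:44969572-45009663). Cd3g was at 65.4 and 69.0 in wild type against 20.9 and 23.9 in LDB2-/- (log2 -1.58, SE 0.13). Cd3e was at 39.7 and 43.2 against 15.1 and 22.2 (log2 -1.15, SE 0.21), and Cd3d at 12.2 and 13.5 against 4.98 and 8.22 (log2 -0.96, SE 0.29). For each chain both LDB2-/- libraries were below both wild type libraries, as in 41.7% of all genes tested. In each, LDB2-/- library 2 was the higher of its pair. Cd247, which encodes the signalling zeta chain, was at 24.6 and 30.5 against 8.06 and 5.98 (log2 -1.97, SE 0.23), with library 1 the higher one in LDB2-/-. Cd247 shares exon sequence with Pou2f1 on the opposite strand and with Gm16565 on the same strand, and Cd3e with the antisense gene Gm48719. Of the receptor's kinases, Zap70 was at 8.35 and 10.4 against 2.64 and 3.85 (log2 -1.53, SE 0.29). Lck was at 11.9 and 17.3 against 9.45 and 9.83 (log2 -0.60, SE 0.24), close to its lower wild type value. Its exons overlap the microRNA gene Mir8119 on the same strand.

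Among surface molecules, Thy1, the classical marker of dendritic epidermal T cells, was the T cell member with the most counts. It was at 112.8 and 124.1 in wild type against 37.0 and 38.8 in LDB2-/- (log2 -1.64, SE 0.11). Fibroblasts also express Thy1, and of the other 7 tested fibroblast genes all 7 rose, Mfap5 being tested through LDB2-/- alone and losing its call without wild type replicate 2 (edgeR adjusted p = 0.0705). Cd7 was at 56.6 and 69.5 against 19.9 and 28.0 (log2 -1.40, SE 0.20), and overlaps the antisense gene Gm11775. Cd2, an adhesion receptor, was at 8.63 and 12.9 against 5.26 and 7.33 (log2 -0.77, SE 0.30). The coreceptor genes were near the limit of detection. Cd4 had 49 and 54 counts in wild type against 22 and 107 in LDB2-/-, and Cd8a 18 and 128 against 27 and 47. Both were under 1 FPKM in every library, were not tested, and overlapped between genotypes.

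The cytokine receptors include the chains that read IL-15 and IL-7. Il2rb, the beta chain shared by the IL-2 and IL-15 receptors, was at 17.95 and 27.2 in wild type against 7.35 and 6.49 in LDB2-/- (log2 -1.71, SE 0.25). Il2rg, the common gamma chain, was at 23.6 and 31.3 against 15.0 and 18.5 (log2 -0.71, SE 0.20) and is also used by other leukocytes. Its exons overlap the protein-coding gene Gm20489 on the same strand. Il7r was at 6.50 and 7.84 against 1.71 and 2.08 (log2 -1.91, SE 0.27). In all 3 both LDB2-/- libraries were below both wild type libraries, as in 41.7% of all genes tested.

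Of the homing and retention receptors, Itgae, the CD103 integrin chain that binds E-cadherin, was at 23.7 and 35.4 against 13.4 and 12.8 (log2 -1.17, SE 0.23). Cxcr6, the receptor of CXCL16, was at 6.08 and 8.08 against 4.86 and 3.43 (log2 -0.77, SE 0.29). Ccr10, the receptor of CCL27, had 10 and 24 counts in wild type against 0 and 33 in LDB2-/-, too few to compare, and a count of 0 in LDB2-/- library 1 allows up to 0.0604 CPM, a limit for counting error only. Of the cytotoxic genes, Nkg7, a granule membrane protein gene, was at 23.4 and 29.0 against 10.9 and 14.2 (log2 -1.06, SE 0.21), and Ctsw, the cathepsin W gene, at 20.0 and 22.8 against 7.94 and 12.3 (log2 -1.08, SE 0.25), with Fibp overlapping it on the opposite strand. Klrk1, which encodes NKG2D, was at 5.26 and 14.5 against 3.06 and 1.92 (log2 -1.99, SE 0.54). Its wild type libraries differed from each other more than those of any other tested member. Gzmb had 52 and 37 counts against 21 and 54, with overlapping genotypes.

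Per length, Thy1 (74.9 ± 6.11 FPKM), Cd3g (72.1 ± 3.77) and Cd7 (66.5 ± 10.6) were the highest T cell members in wild type, a group within its own spread. Nkg7 (35.4 ± 5.84) and Cd3e (31.6 ± 2.34) followed, again within their spread. In wild type 20 of the 21 T cell genes were higher in library 2, all but Gzmb, whereas 9 of the 11 Skint genes were higher in library 1, all but Skint1 and Skint7. In LDB2-/- 10 of the 11 Skint genes were higher in library 1, and 16 of the 21 T cell genes in library 2. With 2 libraries per genotype these orders have no replicate check.

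**Figure D3:**
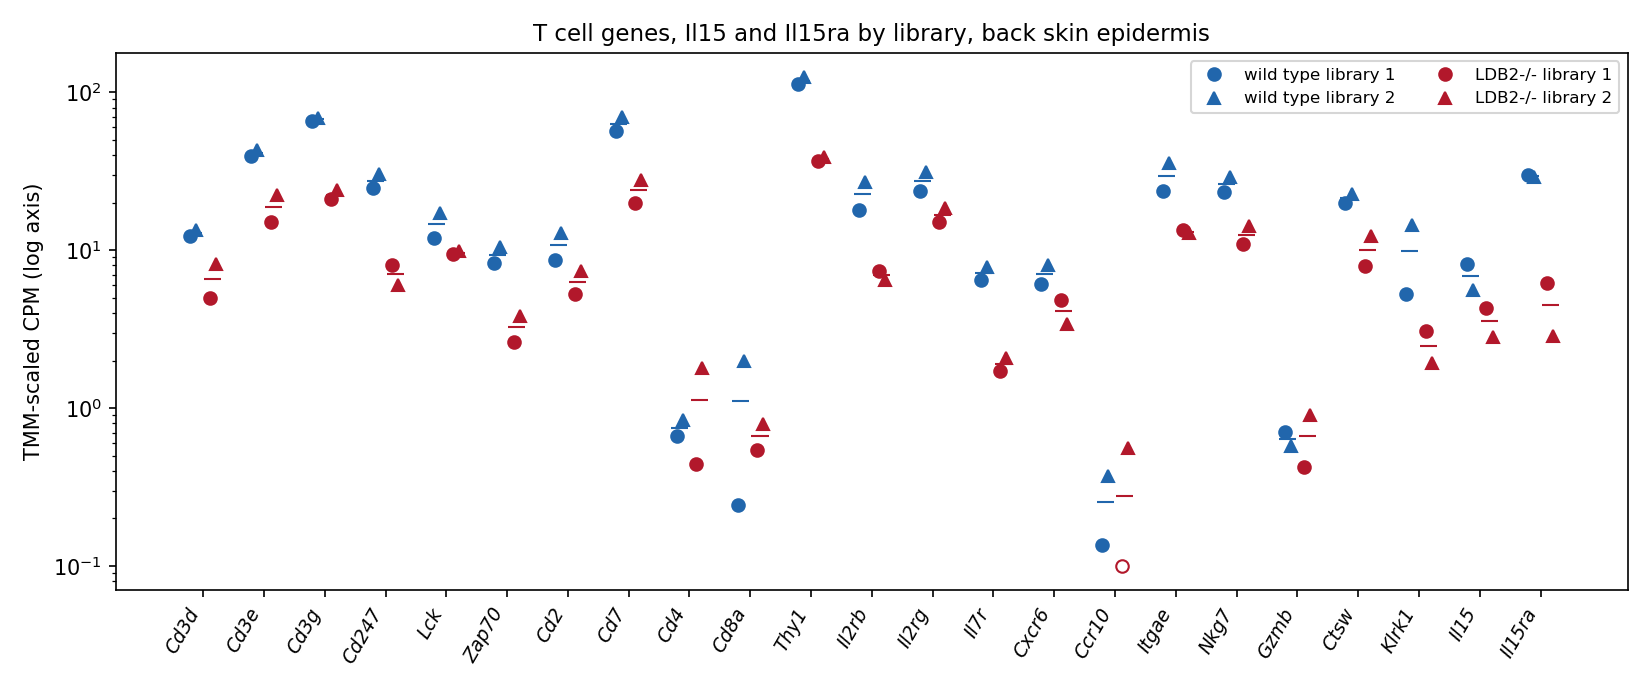
TMM-scaled CPM (log axis) of the 21 T cell genes, Il15 and Il15ra in each library, with symbols and colours as for the Skint genes and the open symbol marking the count of 0 of Ccr10, drawn at 0.1. Red symbols lie below blue ones for all genes except Cd4, Cd8a, Ccr10 and Gzmb, whose genotypes overlap. Among all genes tested, 41.7% had both LDB2-/- libraries below both wild type libraries.

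Il15ra (gene ID 16169, chr2:11705172-11733985) was at 29.8 and 29.0 in wild type against 6.16 and 2.87 in LDB2-/-, 6.52-fold lower (log2 -2.71, SE 0.37). The wild type values were nearly equal and the LDB2-/- values apart by a ratio of 2.14. Il15 (gene ID 16168) was at 8.15 and 5.62 against 4.31 and 2.82 (log2 -0.95, SE 0.33). For both genes the LDB2-/- libraries were below both wild type libraries, as in 41.7% of all genes tested. In the edgeR fit Il15ra passed an adjusted p of 0.05 as lower, as 28.8% of all genes did, and Il15 did not pass. In the authors' deposited table both Il15 and Il15ra passed an adjusted p of 0.05 as lower, as did all 11 Skint genes and 14 T cell genes. There 24.0% of genes with an adjusted p passed as lower and 47.6% in either direction. Nothing is read from these counts either.

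Genes around these members were tested, from lists drawn up by function with earlier results of these data known. Most genes named here and in the lists below were picked for the size of their change. Their p-values are part of this description and give no separate support. Over all genes tested, 28.8% passed as lower and 28.4% as higher. Of 15 genes on signalling below the IL-15 receptor 14 were tested, and 11 fell, 2 rose and 1 did not pass, with a median of -1.26. The kinase Jak1 fell by 1.73 (SE 0.11, edgeR adjusted p = 0.00021), and Stat5a by 1.73 (SE 0.13, edgeR adjusted p = 0.000341), from 46.9 and 49.3 to 13.7 and 15.3. The feedback inhibitor Socs3 fell by 2.57. Ahr, the aryl hydrocarbon receptor, which epidermal T cells need to persist, was counted in this list although it is a receptor of its own. Ahr fell by 2.90 (SE 0.17, edgeR adjusted p = 0.000164), from 122.3 and 140.5 to 19.8 and 15.4. The survival gene Bcl2l1 (log2 0.72) and the kinase gene Pim1 (log2 0.41) rose. By FPKM, which was not scaled by TMM, Pim1 overlapped between genotypes, at 34.8 and 35.4 in wild type against 40.1 and 34.6 in LDB2-/-. Keratinocytes express most of this list, so it is not specific to T cells.

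Keratinocyte cytokines and chemokines for T cells fell in 9 of 12 tested genes, 3 of them (Il7, Ccl20 and Tgfb2) tested through wild type alone, and rose in 2, Il1b (log2 0.96) and Tgfb1 (log2 0.52), and Cxcl14 did not pass. Il7, the ligand of Il7r, fell by 3.74 (SE 0.76, edgeR adjusted p = 0.0084), from 8.33 and 10.2 to 1.23 and 0.185. Ccl27a, the keratinocyte chemokine for CCR10, fell by 1.37 (SE 0.13, edgeR adjusted p = 0.000702), from 258.0 and 210.7 to 92.9 and 88.9. Il18 fell by 2.35. Ccl20 had 279 and 82 counts in wild type against 0 and 0 in LDB2-/-, at least 94.6-fold lower against 3 counts over the LDB2-/- group.

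Keratinocyte ligands of epidermal T cells were mixed. Of 17 listed genes 14 had a row and 8 were tested, of which 4 fell, 2 rose and 2 did not pass. H60c, the NKG2D ligand of skin, fell by 2.89 (SE 0.14, edgeR adjusted p = 0.000125), from 48.2 and 53.8 to 6.71 and 7.04. Cxadr, the ligand of the costimulatory receptor JAML, fell by 1.87 (SE 0.11, edgeR adjusted p = 0.000164). The CD1d gene Cd1d1 fell by 1.19, and Icosl, the ligand of ICOS, rose by 1.06. Cdh1, the E-cadherin gene and partner of the CD103 integrin, did not pass (log2 -0.33, SE 0.14, edgeR adjusted p = 0.0838).

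Of 18 T cell receptor signalling genes outside the members, 14 had both LDB2-/- libraries below both wild type libraries and 2 above. Over all genes tested the shares were 41.7% below and 40.8% above. Of the 12 tested 10 fell, but 6 of these, Skap1 and Tespa1 among them, were under 1 FPKM in both LDB2-/- libraries and were tested through wild type alone. Skap1, an adaptor of integrin activation, fell by 2.13 (SE 0.36, edgeR adjusted p = 0.00442) and Tespa1 by 1.86. The 2 others rose: Prkcq, a protein kinase C gene, by 2.69, and Fyn, a Src family kinase gene, by 2.53, from 10.3 and 13.1 to 68.1 and 67.3. Both are also expressed outside T cells. Among T cell products 3 of 6 tested genes fell, the chemokine gene Xcl1 (log2 -2.04), the perforin gene Prf1 (log2 -1.65) and Tnf (log2 -1.20), and Areg rose. Ccl5 (log2 1.33, SE 0.71, edgeR adjusted p = 0.159) and Gzmc did not pass. Without LDB2-/- replicate 1 Ccl5 was called higher (1.99, edgeR adjusted p = 0.00557). Tnf had an edgeR adjusted p = 0.0283, and its call was lost without wild type replicate 2 (adjusted p = 0.0781) and without LDB2-/- replicate 1 (adjusted p = 0.0539).

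Most listed markers of other lymphocytes did not pass the expression filter. Of the natural killer and innate lymphoid cell genes, Klrd1 (log2 -2.33) and Il18r1 (log2 -1.79) fell, and Hcst did not pass. Of the alpha-beta and regulatory T cell list 11 of 14 genes had a row and 2 were tested, Cd5, which fell by 0.83 (SE 0.27, edgeR adjusted p = 0.0433), and Tcf7, which rose by 1.41 and is also expressed in skin epithelium. The Cd5 call was lost without wild type replicate 2 (adjusted p = 0.183), without LDB2-/- replicate 1 (adjusted p = 0.054) and without LDB2-/- replicate 2 (adjusted p = 0.0869). The gamma and delta chain genes of the T cell receptor were not analysed here, so dendritic epidermal T cells and other T cells cannot be told apart in these data. No B cell gene was tested. The summed level of 5 B cell genes was low but higher in LDB2-/-, at 0.62 and 0.48 in wild type against 2.095 and 3.33.

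Other leukocytes give a background for the T cell genes. Of 15 general leukocyte genes 10 fell, 2 of them (Cytip and Ikzf1) tested through wild type alone, none rose and 5 did not pass, with a median of -1.11 and a summed level of 493.5 and 577.9 in wild type against 244.8 and 258.6 in LDB2-/-. Ptprc, the CD45 gene, fell by 2.19 (SE 0.20, edgeR adjusted p = 0.000591), from 37.4 and 51.2 to 10.4 and 9.01. Of 15 Langerhans cell genes 10 fell and 2 rose, Lyz2 and Mfge8. Cd207, the langerin gene, fell by 1.64 (SE 0.17, edgeR adjusted p = 0.000905), from 44.2 and 45.5 to 16.4 and 12.4. Most dermal macrophage genes went the other way, with 6 of 7 tested genes higher (Folr2 tested through LDB2-/- alone), among them C1qc (log2 2.88) and Fcgr3 (log2 2.64). The exception, Adgre1, fell by 0.96 (SE 0.28, edgeR adjusted p = 0.0295). The summed level of the macrophage list was 28.9 and 29.9 in wild type against 69.2 and 92.9 in LDB2-/-. Of 7 mast cell genes with a row, 6 had both LDB2-/- libraries above both wild type libraries, as in 40.8% of all genes tested. Of 10 endothelial genes 9 did, all but Kdr (10 and 5 counts in wild type, 0 and 0 in LDB2-/-). Several of these genes were not tested, some with few counts. All 5 tested endothelial genes and 3 of the 4 tested mast cell genes were under 1 FPKM in both wild type libraries and were tested through LDB2-/- alone, so no count of their calls is given. The part of these shifts in the level of the T cell genes was not tested.

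**Figure D4:**
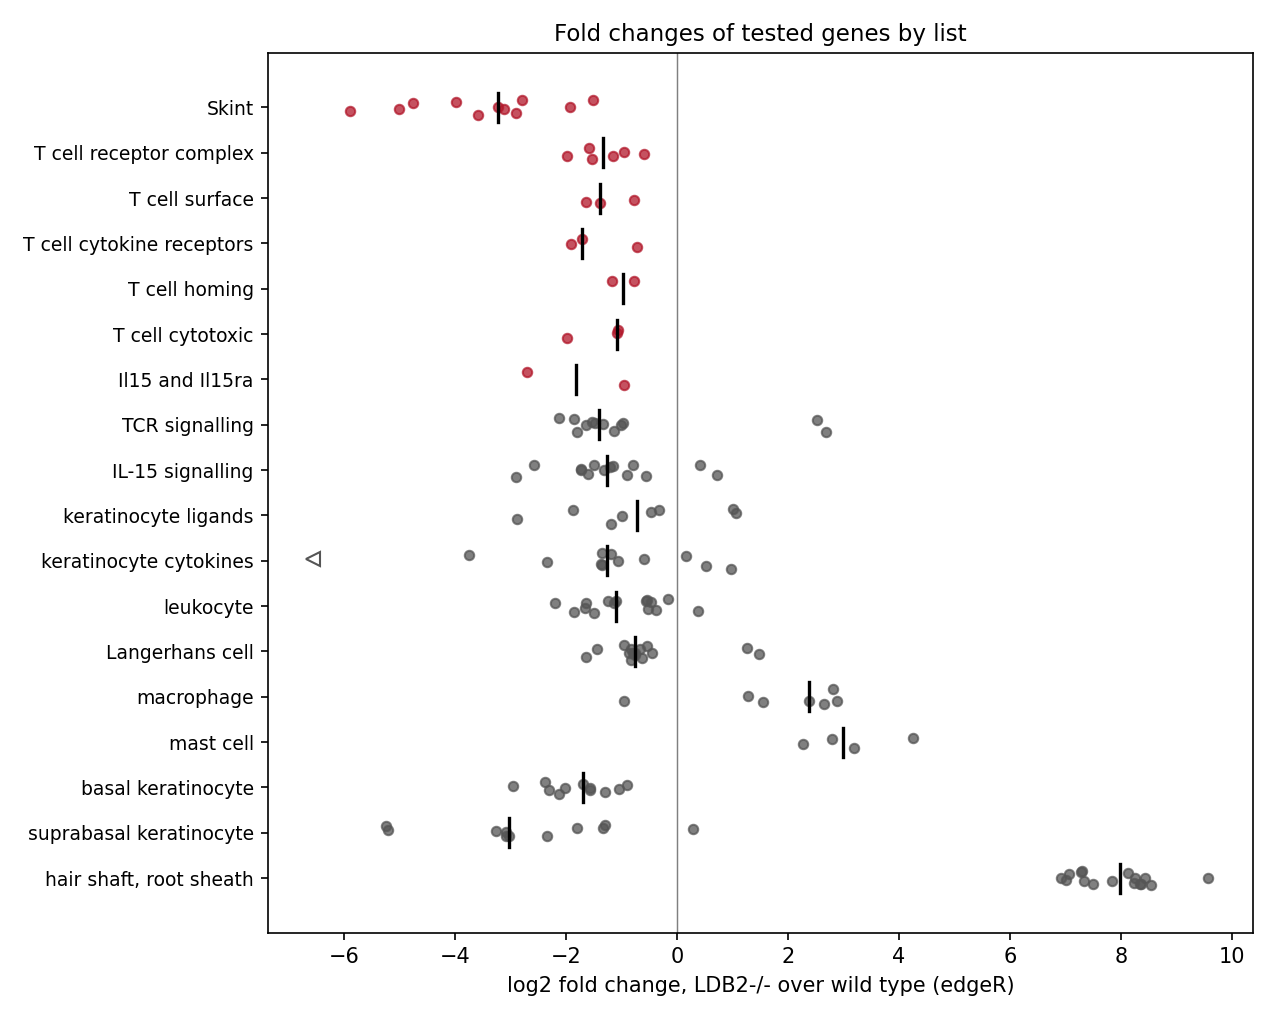
Log2 fold change (edgeR) of each tested gene by list, the members in red and other lists in grey, with a bar at the list median. The open triangle is Ccl20, at 0 in both LDB2-/- libraries, drawn at its bound. Skint genes (median -3.23) lie by the suprabasal keratinocyte genes (median -3.03). T cell members are drawn as separate lists, with medians from -0.975 (homing) to -1.71 (cytokine receptors), and the general leukocyte genes have a median of -1.11. The alpha-beta T cell, T cell product, natural killer, endothelial and fibroblast lists are not drawn.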

How the data were processed

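The library kit was Illumina TruSeq, per the labels' protocols. Tools in the submitters' processing notes are HISAT2 2.1.0, StringTie 1.3.4d and bcl2fastq 1.8.4, with build mm10 and no settings, and strandedness is not given in the sources used here. The authors deposited read counts and FPKM per gene, per the file headers. For their comparison the authors deposited a fold score, negative where LDB2-/- is lower, and an adjusted p-value.

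Counts were tested with edgeR 4.0.16 (R 4.3.3), quasi-likelihood, TMM scaling, genotype as the only term, two-sided, for the 12400 genes that reached 1 FPKM in 2 or more libraries, Benjamini-Hochberg adjusted. TMM factors were 1.105 and 1.128 for wild type libraries, 0.920 and 0.872 in LDB2-/-. CPM uses the total over tested genes times that factor. On simulated counts for 12400 genes the test found 62 of 66 genes with a 4-fold change, 36 of 67 with a 2-fold change and 0 of 67 with a 1.5-fold change. It made 14 false calls, more than the threshold is meant to allow. In the data 57.2% of genes passed, a far larger share than was changed in the simulation. These rates therefore do not carry over to the data.

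The members and lists were chosen with earlier results of these data known. Named genes are all members, up to 4 tested genes per list with the largest absolute fold change, Ldb2, Cd207 and Ptprc. Others named as exceptions to their list (Dsc1, Bcl2l1, Pim1, Cxcl14, Il1b, Tgfb1, Cdh1, Areg, Gzmc, Adgre1, Kdr, Tgfb2 and Mfap5), the neighbours of the cluster and the genes of the closing section were chosen after their values were seen. For most other cell type lists only counts are given. 1 gene of the natural killer and innate lymphoid list, and the counts over that list, are not reported here. Alternatives were other scalings, filters and tests (DESeq2 1.42.0, limma 3.58.1 on log2(FPKM + 1) and log2(FPKM + 0.1)), the replicate number as a block, crossed pairs as a block, which was added after seeing the data, and each library left out. Promoters came from RefSeq, matched by gene ID for 25 of 34 members, and transcripts and exons from GENCODE M21. Biopython 1.88 aligned the promoters.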

Additional observations from a re-analysis of the deposited data

How the results depend on the processing

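All 30 tested members stayed lower in LDB2-/- under every alternative in which they were tested. Every alternative reused the same libraries, and the members were chosen on this comparison, so the stable sign gives no separate support. Calls were less stable. Cd3d and Il2rg passed in the main fit but not in every alternative, and Lck, Cd2, Cxcr6 and Il15 passed only in some alternatives. The median log2 fold change of the T cell members was -1.50 with the library total alone and -1.44 with limma on log2(FPKM + 0.1), against -1.17. The number of genes called higher fell from 3521 to 2248 with the library total alone, 2314 with limma on log2(FPKM + 1) and 2146 with limma on log2(FPKM + 0.1), against 5096, 5282 and 4904 called lower. The median of Il15 and Il15ra was -2.79 with a mean FPKM of 5 or more, where only Il15ra is tested. Leaving out 1 library gave medians from -3.55 to -2.86 for the Skint genes, from -1.43 to -1.03 for the T cell members and from -2.27 to -1.43 for Il15 and Il15ra. Without either wild type library Skint5, Skint6 and Skint11 were not tested. With the replicate number as a block 6092 genes were called against 7097, and Cd5 was no longer called (adjusted p = 0.0866). Deviations of same-numbered libraries correlated at -0.16 across genes, and crossed pairs as a block called 7269 and was chosen after seeing the data. The labels do not say that the numbers pair animals. Genes with few counts, such as Cd4, Cd8a, Gzmb and Ccr10, were too shallow to compare.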

Other observations

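Several T cell and keratinocyte cytokine genes too low to test had counts in both wild type libraries and few or none in LDB2-/-, and were chosen here after their values were seen. Cd28, the costimulatory receptor gene, had 15 and 32 counts in wild type against 0 and 0 in LDB2-/-. Ubash3a, a regulator of T cell receptor signalling, had 27 and 34 against 0 and 0, and the interleukin gene Il2 had 27 and 10 against 0 and 0. Ccl28, which encodes another ligand of CCR10, had 16 and 39 against 0 and 0. Tslp, a keratinocyte cytokine gene, had 112 and 62 counts against 6 and 0. Other untested genes of these lists did not go this way. Cd27 had 25 and 39 counts in wild type against 32 and 43 in LDB2-/-, and Ccl3 11 and 18 against 36 and 21. Cd8b1 had 18 and 53 against 12 and 48, with overlapping genotypes.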
